A study of Xenopus tropicalis with 21 samples.

Results

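The control animals of the F1 and F2 generations of a study on Xenopus tropicalis, the tropical clawed frog, were described here by the liver transcripts of mature females. The genes were those that the deposited comparison tables of both generations marked as tested and that carried a single gene name, 11605 of 20288 rows. The study sequenced stranded poly(A) RNA from 15 mg of liver per frog as 75 bp reads. It asked whether benzo[a]pyrene (BaP), a combustion product and ligand of the aryl hydrocarbon receptor, leaves a trace in the descendants of exposed frogs. F0 frogs were kept either as controls or in BaP at 50 ng/L from tadpole to maturity, and their F1 and F2 descendants lived without it. F1 held 5 control frogs and 6 of the BaP lineage, and F2 held 5 of each; BaP below names the lineage, not an exposure of the frog itself. The labels do not give the age of the frogs.

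The liver makes most of the proteins of blood plasma, among them carriers, clotting factors and complement. It also stores glycogen, makes glucose and ketone bodies, builds and exports lipids, disposes of nitrogen as urea and oxidises foreign compounds. In egg-laying vertebrates the liver of mature females makes vitellogenin, the yolk precursor, under estrogen.

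Levels are the authors' group values in FPKM, read fragments corrected for transcript length and sequencing depth, 1 per gene and group. No value per frog was used, so no spread between frogs can be given, no p-value was computed for a difference between generations, and library depth is unknown. The generations stand in separate tables that were normalised separately, so generation and table cannot be told apart. Each FPKM was therefore replaced by the mean log2 FPKM that both control columns hold at its rank, and the F2 value minus the F1 value is called the rank-matched log2 difference. A gene was called higher or lower where this difference reached 2-fold, that is 1 log2 unit, and its mean control level was at least 1 FPKM, which 10856 genes reached and 749 did not. Of those 10856 genes, 18.2% were higher and 18.4% lower in F2 controls, and the counts within gene lists are read against these shares.

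The hepatocyte markers matched the label. Of 14 markers, 11 were readable in both tables, with FPKM ranks from 81 to 1131 of 11605 in F1 controls and from 93 to 699 in F2 controls. The albumin gene alb and the transferrin gene tf were among 18 rows marked as too much data or failed in at least 1 table, as were c3, vtga2, eef1a1 and the hemoglobin genes hba1 and hbg1, so the most abundant liver messages are outside these ranks. The tyrosine breakdown gene hpd was listed at 0.0613 FPKM in F1 controls and 0.103 in F2 controls and was not tested. The summed level of 4 readable red cell markers was 296 FPKM in F1 and 966 in F2 controls, and 528 in F1 and 873 in F2 frogs of the BaP lineage. That of 4 leukocyte markers was 65.6, 103, 92.2 and 111 FPKM in the same order. Of these only cd74 stood higher in F2 controls, with 45.8 FPKM in F1 and 91.8 in F2 controls. In F1 and F2 controls, ptprc had 13.3 and 5.37 FPKM, csf1r 4.75 and 4.65 and laptm5 1.65 and 1.55. In that order of groups, 4 bile duct markers summed to 524, 633, 498 and 681 FPKM. The 4 collagen and matrix markers summed to 39.0, 29.4, 56.2 and 31.3 FPKM. In F1 and F2 controls, hbd had 98.2 and 550 FPKM, alas2 157 and 367, slc4a1 18.3 and 31.6 and epb42 22.1 and 17.3. The keratin gene krt19 held 499.9 and 595 FPKM of the bile duct sums. In the matrix set dcn had 3.87 and 12.6 FPKM, while col1a1 had 11.7 and 4.92, col1a2 9.26 and 4.82 and col3a1 14.2 and 7.04. The pancreatic enzyme genes ctrb1 and pnlip were listed at 0 in both control groups. In such bulk samples, fewer cells of a type and less RNA per cell cannot be told apart.

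Ribosomal protein genes led the list of readable messages in both generations. They filled 8 of the 10 highest ranks in F1 controls and all 10 in F2 controls, and 27 of the 30 highest mean ranks. Ribosomal proteins together held 49.9% of the summed FPKM in F1 controls and 64.7% in F2 controls. The large-subunit gene rpl37 had 16962 FPKM in F1 controls and 30856 in F2 controls, rank 2 and rank 1. The gene rpl23 had the highest level in F1 controls, with 19894 FPKM, and stood eighth in F2 controls with 15232 FPKM. The small-subunit gene rps12 (chromosome 5, 70604376 to 70609792, assembly UCB_Xtro_10.0) had 8959 FPKM in F1 controls and 18971 in F2 controls. The rows of rpl23, rps12, rps7 and rpl4 span further short LOC-named rows, and ribosomal protein genes often have near-identical copies, so the split of reads among such rows is uncertain.

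A few genes outside the ribosome stood beside these. The apolipoprotein gene apoc1 had 9777 FPKM in F1 controls and 11426 in F2 controls, ranks 7 and 21. The retinol carrier gene rbp4 had 4374 FPKM in F1 controls and 5676 in F2 controls, with a rank-matched log2 difference of -0.83. Its log2 FPKM ratio, centred on the median over genes, was 0.72, so the sign depended on the method. The ribosome-bound scaffold gene rack1 had 1949.7 FPKM in F1 controls and 6304 in F2 controls. The hemoglobin gene hbg2 reached 5144 FPKM in F1 controls and 5955 in F2 controls. A row named rbm6 was listed at 5485 and 12472 FPKM (chromosome 6, 115715832 to 115719355), and LOC100135138 at 9115 and 14176, with no further annotation used here. The 100 highest genes held 61.7% of the summed FPKM of the genes used in F1 controls and 75.5% in F2 controls. In both, 82 genes were among the highest 100. The highest 100 held 67 ribosomal protein genes in F1 and 76 in F2 controls, and 20 and 11 genes of none of the 41 lists used. A total of 116 genes in F1 controls and 130 in F2 controls reached 1000 FPKM.

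**Figure D1:**
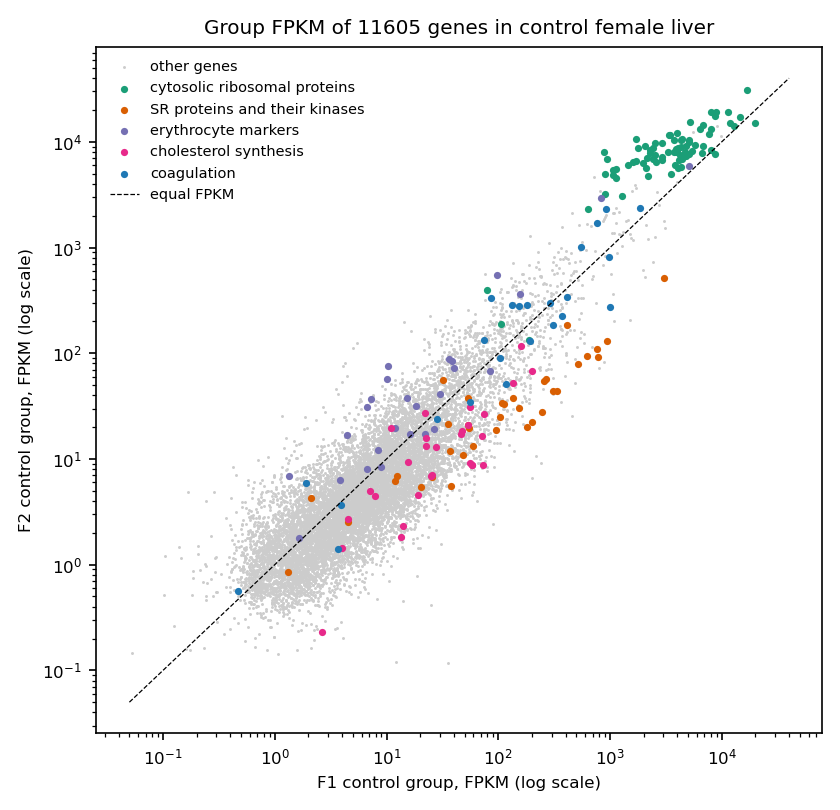
Group FPKM of 11605 genes in F1 control liver (horizontal, log scale) and F2 control liver (vertical, log scale), with genes of 5 lists coloured and a dashed line of equal FPKM. Ribosomal protein genes form the upper right end, while SR protein genes lie below the line and most erythrocyte markers above it.

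Plasma protein genes followed, and the median rank of the carriers and protease inhibitors was close in both generations. The 20 readable genes for carriers and protease inhibitors had a median FPKM rank of 205.5 in F1 and 213.5 in F2 controls, with a median rank-matched log2 difference of 0.02. Of these, 2 were higher and 4 lower in F2 controls. With median-centred log2 FPKM ratios the counts were 4 higher and 2 lower, and the median was 0.67. The protease inhibitor gene serpina1 had 2763 FPKM in F1 controls and 2552 in F2 controls, a rank-matched log2 difference of -1.15 that reversed to 0.23 with median-centred log2 FPKM ratios in place of ranks. The gene fetub, which encodes the carrier fetuin-B, had 3033 FPKM in F1 controls and 1787 in F2 controls (-1.71). The iron hormone gene hamp had 869 FPKM in F1 controls and 1795 in F2 controls. The genes for the 3 chains of fibrinogen, the clot protein, ranked within the first 137 genes in both control groups: fga had 764 FPKM in F1 controls and 1717 in F2 controls, fgb had 913 FPKM in F1 controls and 2311 in F2 controls and fgg had 1873 FPKM in F1 controls and 2383 in F2 controls. Their rank-matched log2 differences were 0.72 for fga, 0.70 for fgb and -0.66 for fgg. With median-centred log2 FPKM ratios they were 1.51, 1.68 and 0.69, so the sign for fgg depended on the method. The prothrombin gene f2 had 975 FPKM in F1 controls and 812 in F2 controls. The 24 coagulation genes had median levels of 166.98 FPKM in F1 and 251 in F2 controls. The 24 complement genes had 161 and 105, and all 24 ranked within the first 2484 genes in F1 controls and the first 2202 in F2 controls. Of the 23 coagulation genes of at least 1 FPKM, 3 were higher and 3 lower in F2 controls. Their median rank-matched log2 difference was 0.0, with 11 positive and 11 negative. With median-centred log2 FPKM ratios 9 were higher and 2 lower, and the median was 0.25.

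Some plasma proteins did stand apart between generations. Kininogen, kng1, the precursor of bradykinin, had 999 FPKM in F1 controls and 274 in F2 controls, a rank-matched log2 difference of -2.11. The heme carrier gene hpx had 552 FPKM in F1 controls and 157 in F2 controls (-1.99). The ficolin genes fcn1 and fcn3, whose products start the lectin pathway of complement, had 119 and 544 FPKM in F1 and 23.8 and 139 in F2 controls. On the other side, the heparin cofactor gene serpind1 had 86.7 FPKM in F1 controls and 336 in F2 controls and the vitamin D carrier gene gc had 90.5 FPKM in F1 controls and 231 in F2 controls. The complement list held 5 genes (20.8%) lower and 1 (4.17%) higher, where 18.4% and 18.2% of all genes were. With median-centred ratios 4 were lower and 3 higher, and the sign of the list median turned from -0.23 to 0.04.

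Apolipoprotein and lipoprotein genes leaned to F2. Of 22 genes, 7 (31.8%) were higher and 2 (9.09%) lower in F2 controls, where 18.2% and 18.4% of all genes were, with a median rank-matched log2 difference of 0.63. The very low density lipoprotein assembly gene mttp.1 had 8.28 FPKM in F1 controls and 20.2 in F2 controls. Its numbered copy mttp.2 was marked as too much data in both generations and has no readable value. The structural apolipoprotein gene apob had 145 FPKM in F1 controls and 284 in F2 controls. The LDL receptor gene ldlr lay on the other side, with 135 FPKM in F1 controls and 52.5 in F2 controls.

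**Figure D2:**
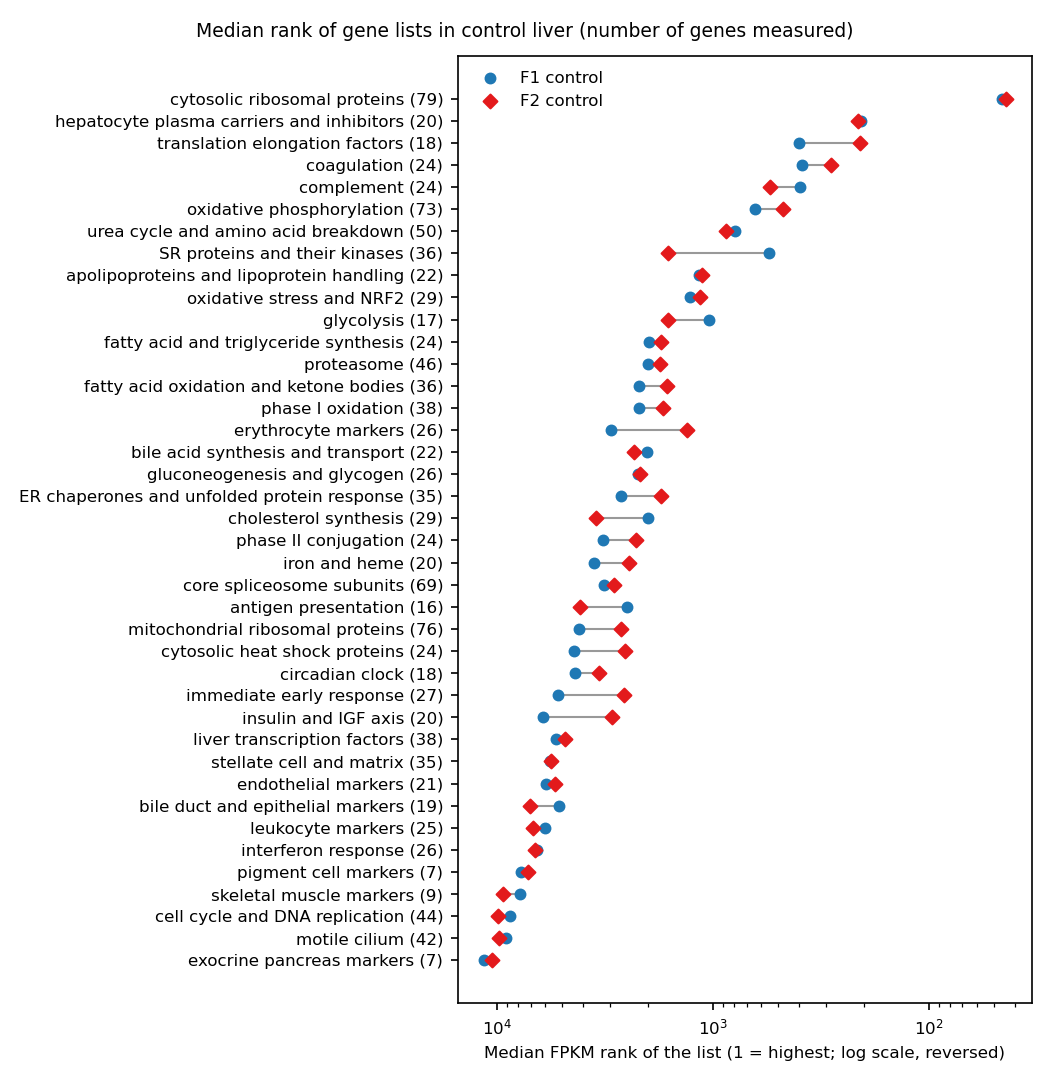
Median FPKM rank of each gene list in F1 controls (circles) and F2 controls (diamonds), on a reversed log axis with the highest expression at the right. Ribosomal proteins lie near rank 46 and 44, plasma carriers near rank 205.5 and 213.5, and the SR protein list moves from rank 552.5 to 1613.5.

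The order of genes was less alike between the generations than within them. Across the 11605 genes, Spearman's rho of the FPKM was 0.838 between F1 and F2 controls, 0.901 between F1 and F2 BaP frogs, 0.973 between the F1 groups and 0.979 between the F2 groups. These are descriptions over genes, and the groups of 1 generation share a table and its normalisation. In F2 controls 1971 genes (18.2%) were higher and 1996 (18.4%) lower than in F1 controls, 36.5% together. By the same measure 2539 genes (23.4%) differed between F1 and F2 in the BaP lineage, 427 (3.93%) between lineages in F1 and 259 (2.39%) in F2. At 4-fold the control counts were 388 higher and 397 lower, and at 8-fold 70 and 58. Strongly expressed genes took part: beyond the 100 highest mean ranks and up to rank 500, 22.2% of genes were higher and 16.7% lower, and within the 100 highest 10.2% and 9.18%. Near the limit, the iron exporter gene slc40a1, with 54.6 and 102 FPKM, was just inside on the higher side and lman2l, with 9.04 and 13.5, just outside. On the lower side ppard, with 20.9 and 7.83 FPKM, was just inside and casc4, with 28.2 and 10.8, just outside.

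The BaP lineage gave the same measure in other frogs. Of the 1971 genes higher in F2 controls, 1043 (52.9%) were also at least 2-fold higher in F2 than in F1 BaP frogs, where 11.5% of all genes were, and 1930 (97.9%) had the same sign. Of the 1996 lower genes, 1097 (55.0%) were also lower there, where 11.8% of all genes were, and 1915 (95.9%) had the same sign. Across 10856 genes Spearman's rho between the control and BaP differences was 0.862, with both taken from the same pair of tables and their normalisation. The SD across genes was 1.13 log2 units in controls and 0.88 in the BaP lineage.

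**Figure D3:**
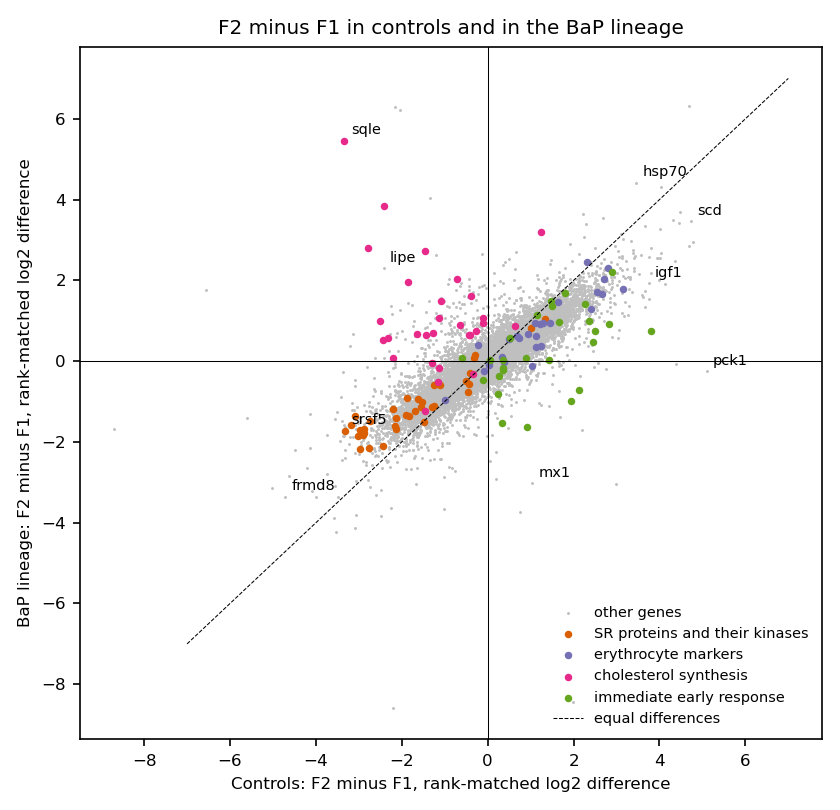
Rank-matched log2 difference, F2 minus F1, in controls (horizontal) and in the BaP lineage (vertical) for 10856 genes, with 4 lists coloured and the dashed line of equal differences. Most genes follow the diagonal, whereas sqle and other cholesterol synthesis genes lie at the upper left and pck1 lies near 0 on the vertical axis.

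The 15 largest differences toward F2 among genes with a symbol included genes of metabolism and its hormonal control. The stearoyl-CoA desaturase gene scd (chromosome 7, 42442917 to 42465833), which makes monounsaturated fatty acids, had 5.41 FPKM in F1 controls, 17.5 in F1 BaP, 126 in F2 controls and 147.97 in F2 BaP frogs. Its rank-matched log2 difference was 4.73 in controls and 3.46 in the BaP lineage, and both F2 groups lay above both F1 groups. The transcription factor genes klf9 and klf15, known in mammals as glucocorticoid-responsive, were also among the 15. klf9 had 1.85 FPKM in F1 controls, 2.57 in F1 BaP, 24.9 in F2 controls and 40.6 in F2 BaP frogs, and klf15 had 0.42 FPKM in F1 controls, 0.804 in F1 BaP, 8.31 in F2 controls and 4.65 in F2 BaP frogs. The cyclic AMP responsive factor gene crem had 4.23 FPKM in F1 controls, 8.25 in F1 BaP, 80.8 in F2 controls and 82.6 in F2 BaP frogs. The riboflavin kinase gene rfk, for making flavin cofactors, had 1.16 FPKM in F1 controls and 25.6 in F2 controls, and the heparan sulfate proteoglycan gene sdc4 had 4.05 FPKM in F1 controls and 75.03 in F2 controls. All of these stood higher in both F2 groups than in either F1 group. The remaining members of the 15 were pck1, svopl, slc26a2, slc6a12, tmem97, inhbc.2, psmd5, nr4a2 and fam8a1, and in svopl the BaP lineage showed -0.08 against 4.38 in controls. In F1 controls pck1 (0.167 FPKM), slc6a12 (0.241), svopl (0.287), fam8a1 (0.404) and klf15 (0.42) were under 1 FPKM. So were slc26a2 (0.446) and psmd5 (0.778). These genes passed the minimum, set on the mean of both control groups, only through their F2 level.

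The 15 largest differences toward F1, again among genes with a symbol, were led by frmd8 (chromosome 4, 33849926 to 33876791), whose product binds proteins of the rhomboid family. It had 201 FPKM in F1 controls, 276 in F1 BaP, 6.60 in F2 controls and 20.9 in F2 BaP frogs, a rank-matched log2 difference of -4.71 in controls and -3.35 in the BaP lineage. The gene g0s2, an inhibitor of the triglyceride lipase encoded by pnpla2, had 893 FPKM in F1 controls, 634 in F1 BaP, 83.5 in F2 controls and 61.8 in F2 BaP frogs, while pnpla2 itself had 1.25 FPKM in F1 controls and 4.32 in F2 controls. These neighbours in lipolysis thus lay on opposite sides. The chromatin reader gene brd3 had 27.8 FPKM in F1 controls and 2.11 in F2 controls, the melastatin channel gene trpm1 had 30.6 FPKM in F1 controls and 1.57 in F2 controls, and the organic anion transporter gene slco1c1 had 18.6 FPKM in F1 controls and 0.782 in F2 controls. The others were btbd17, klhl10, tmem102, lgals1.3, rec114, slc12a8, lrrc43, MGC64513, sqle and upk3a. In F2 controls sqle (0.232 FPKM), lrrc43 (0.288), klhl10 (0.478), upk3a (0.541) and lgals1.3 (0.703) were under 1 FPKM, as was slco1c1. These genes passed the minimum, set on the mean of both control groups, only through their F1 level.

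Genes for SR proteins, the serine- and arginine-rich splicing factors, and for their kinases stood lower in F2 controls. Of 36 genes, 28 (77.8%) were lower and 2 (5.56%) higher, where 18.4% and 18.2% of all genes were. The median rank-matched log2 difference was -1.86 against -0.01 over all genes. In the BaP lineage 24 of the 28 were also lower, as were 55.0% of all genes lower in F2 controls, and the list median was -1.27. The gene srsf5 had 3034 FPKM in F1 controls, 2272 in F1 BaP, 515 in F2 controls and 639.8 in F2 BaP frogs. The SR-related gene srrm1 had 767 FPKM in F1 controls and 109.9 in F2 controls, and sfswap, a regulator of splice site choice, had 247 FPKM in F1 controls and 27.9 in F2 controls. For srsf5, srrm1 and sfswap alike, both F2 groups lay below both F1 groups. Of 69 genes listed as core spliceosome subunits 12 were higher and 9 lower, with a median of 0.05. Both lists were written after these values had been seen, and the U1 subunit gene snrnp70, with 933 FPKM in F1 controls and 132 in F2 controls, was counted with the SR proteins, so the contrast between the lists depends in part on how members were assigned.

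**Figure D4:**
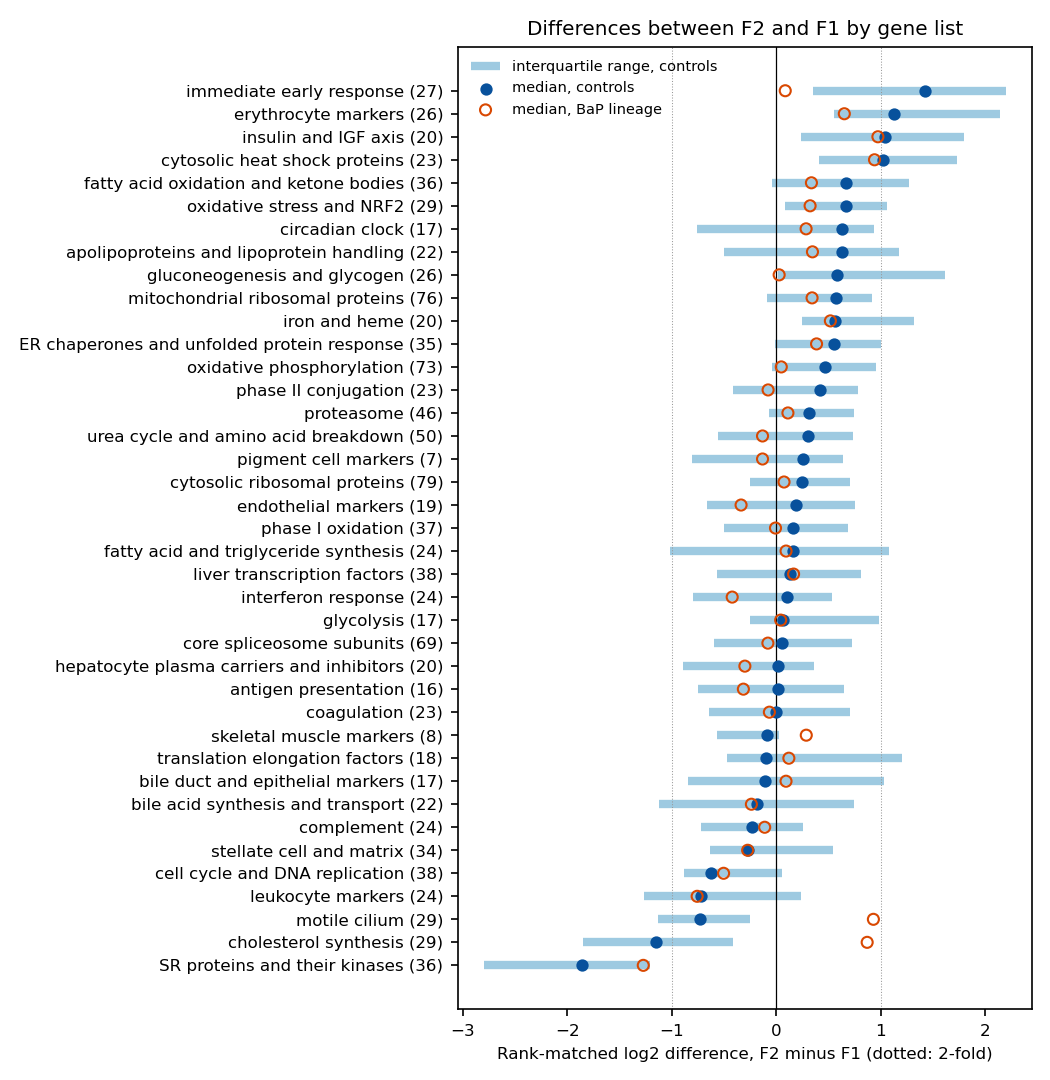
Median rank-matched log2 difference, F2 minus F1, of each gene list in controls (filled, with the interquartile range of its genes as a bar) and in the BaP lineage (open). The lists run from SR proteins at -1.86 to the immediate early response at 1.42 in controls, and the open and filled points of cholesterol synthesis and motile cilium lie on opposite sides of 0.

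Cholesterol synthesis genes stood lower in F2 than in F1 controls, and the BaP lineage had the opposite order. Of 29 genes, 18 (62.1%) were lower and 1 (3.45%) higher in F2 controls, where 18.4% and 18.2% of all genes were. The median rank-matched log2 difference was -1.15. In the BaP lineage 11 were higher and 1 lower, where 11.5% and 11.8% of all genes were. The median there was 0.87, and 14 of the 18 had a positive difference. The synthase gene hmgcs1, at an early step of the pathway, had 71.5 FPKM in F1 controls, 12.4 in F1 BaP, 16.5 in F2 controls and 36.6 in F2 BaP frogs. The F1 control group was thus the highest and the F1 BaP group the lowest, with both F2 groups between. The sterol demethylase gene cyp51a1 had 73.1 FPKM in F1 controls, 5.47 in F1 BaP, 8.76 in F2 controls and 29.4 in F2 BaP frogs, in the same order as hmgcs1. Squalene epoxidase, sqle (chromosome 6, 143392404 to 143401523), had 2.66 FPKM in F1 controls, 0.0656 in F1 BaP, 0.232 in F2 controls and 3.32 in F2 BaP frogs, with F2 BaP highest and F1 BaP lowest. The transcription factor gene srebf2, which drives the pathway and was picked after its values were seen, had 22.4 FPKM in F1 controls and 15.8 in F2 controls, a difference of -0.10 in controls. Over this list, 16 genes in the authors' deposited table for F1 and 7 in that for F2 had q under 0.05 between lineages, where 1.67% and 1.32% of all tested genes did. Those comparisons use the same control frogs.

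Of 22 genes of bile acid synthesis and transport 3 (13.6%) were higher and 6 (27.3%) lower, where 18.2% and 18.4% of all genes were. The enzyme gene cyp7a1, the rate-limiting step, had 8.86 FPKM in F1 controls, 1.14 in F1 BaP, 1.57 in F2 controls and 1.46 in F2 BaP frogs. The sterol 12-alpha-hydroxylase gene cyp8b1.1, which sets the kind of bile acid made in mammals, had 2.80 FPKM in F1 controls, 7.47 in F1 BaP, 27.7 in F2 controls and 17.3 in F2 BaP frogs. The control difference was -2.14 for cyp7a1 and 3.60 for cyp8b1.1. The tandem genes cyp46a1.1 and cyp46a1.2 had 402 and 55.00 FPKM in F1 and 100.02 and 9.09 in F2 controls. Reads shared among such numbered copies cannot be assigned from these tables.

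Fatty acid and triglyceride synthesis genes lay on both sides. Of 24 genes, 7 were higher and 6 lower in F2 controls. The genes for making cytosolic acetyl-CoA and malonyl-CoA, acly and acaca, had 66.8 and 81.9 FPKM in F1 and 10.6 and 22.5 in F2 controls. The mitochondrial glycerol acyltransferase gene gpam had 295 FPKM in F1 controls and 96.7 in F2 controls. Against these, scd and the acyltransferase genes agpat3 and dgat2 were higher, dgat2 with 144 FPKM in F1 controls, 156 in F1 BaP, 437 in F2 controls and 116 in F2 BaP frogs. Only F2 controls stood out for dgat2, since the other 3 groups lay between 116 and 156 FPKM.

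Fatty acid oxidation genes leaned to F2 controls. Of 36 genes, 13 (36.1%) were higher and 3 (8.33%) lower, where 18.2% and 18.4% of all genes were. The median rank-matched log2 difference was 0.66. In the BaP lineage that median was 0.34. The nuclear receptor gene ppara, which controls the pathway, had 1.37 FPKM in F1 controls, 2.51 in F1 BaP, 4.08 in F2 controls and 5.26 in F2 BaP frogs. The lipase gene lipe went the other way, with 14.5 FPKM in F1 controls, 5.26 in F1 BaP, 2.08 in F2 controls and 19.4 in F2 BaP frogs. In lipe the controls stood lower in F2 and the BaP lineage higher in F2.

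Gluconeogenesis and glycogen genes held the single largest difference among expressed genes with a symbol. Phosphoenolpyruvate carboxykinase, pck1 (chromosome 10, 5408168 to 5414677), the entry step from oxaloacetate, had 0.167 FPKM in F1 controls, 6.10 in F1 BaP, 4.84 in F2 controls and 3.88 in F2 BaP frogs. It was under 1 FPKM in F1 controls and the other 3 groups lay between 3.88 and 6.10 FPKM, so its rank-matched log2 difference was 5.10 in controls and -0.25 in the BaP lineage. Of 26 genes in the list, 11 (42.3%) were higher and 3 (11.5%) lower, where 18.2% and 18.4% of all genes were. The list median was 0.58 in controls and 0.03 in the BaP lineage. Glucose-6-phosphatase, g6pc.1, the last step of glucose release, had 345 FPKM in F1 controls, 1114 in F1 BaP, 905 in F2 controls and 476 in F2 BaP frogs. The coactivator gene ppargc1a had 1.39 FPKM in F1 controls, 0.776 in F1 BaP, 5.12 in F2 controls and 7.60 in F2 BaP frogs, and the glucose transporter gene slc2a2 had 21.8 FPKM in F1 controls, 49.6 in F1 BaP, 137.03 in F2 controls and 110.02 in F2 BaP frogs. The glucokinase regulator gene gckr was lower, with 484 FPKM in F1 controls, 374 in F1 BaP, 52.8 in F2 controls and 74.97 in F2 BaP frogs. Both gckr values in F2 lay below both in F1. Among 17 glycolysis genes 4 (23.5%) were higher and 2 (11.8%) lower, and gapdh had 1076 FPKM in F1 controls and 1360.3 in F2 controls.

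Insulin and growth factor signalling genes were shifted in both lineages. Of 20 genes, 10 (50.0%) were higher and 1 (5.0%) lower in F2 controls, where 18.2% and 18.4% of all genes were. The median rank-matched log2 difference was 1.04 in controls and 0.97 in the BaP lineage. In the BaP lineage 9 of the 10 were also higher, as were 52.9% of all genes higher in F2 controls. The growth factor gene igf1, made in liver under growth hormone, had 1.82 FPKM in F1 controls, 2.06 in F1 BaP, 19.3 in F2 controls and 6.15 in F2 BaP frogs. The growth hormone receptor gene ghr had 0.712 FPKM in F1 controls, 0.766 in F1 BaP, 3.85 in F2 controls and 2.53 in F2 BaP frogs. The binding protein gene igfbp1, which insulin represses in mammals, had 5.24 FPKM in F1 controls, 27.7 in F1 BaP, 15.4 in F2 controls and 43.9 in F2 BaP frogs. The 1 lower gene was igf2, with 403 FPKM in F1 controls, 561 in F1 BaP, 97.1 in F2 controls and 82.2 in F2 BaP frogs. With 1 value per group, both F2 values lay above both F1 values for igf1 and ghr and below both for igf2.

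**Figure D5:**
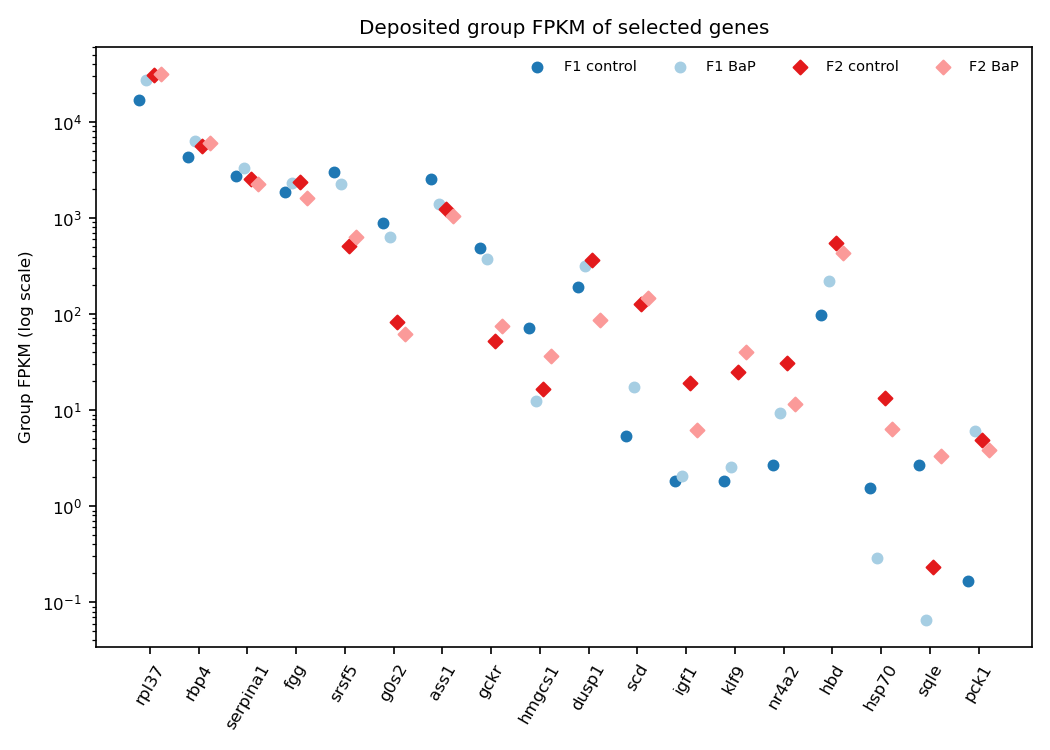
The authors' group FPKM of 18 genes (log scale) in the 4 groups, with circles for F1, diamonds for F2 and paler symbols for the BaP lineage. On this FPKM scale rbp4 and fgg stay within a narrow band, though their rank-matched log2 differences in controls were -0.83 and -0.66. By the median-centred ratio those of rbp4 and fgg were 0.72 and 0.69. The genes scd, igf1 and klf9 separate by generation, and hmgcs1, sqle and pck1 do not.

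Immediate early genes, which react within minutes to handling, hormones or stress, stood higher in F2 controls. Of 27 genes, 15 (55.6%) were higher and none lower, where 18.2% and 18.4% of all genes were. The median rank-matched log2 difference was 1.42, the highest of the 40 lists with at least 3 expressed genes. In the BaP lineage 6 were higher and 2 lower, where 11.5% and 11.8% of all genes were, with a median of 0.09. The nuclear receptor gene nr4a2 had 2.71 FPKM in F1 controls, 9.44 in F1 BaP, 30.9 in F2 controls and 11.6 in F2 BaP frogs. The AP-1 gene fos had 2.95 FPKM in F1 controls, 2.19 in F1 BaP, 9.85 in F2 controls and 1.09 in F2 BaP frogs, and the phosphatase gene dusp1 had 194 FPKM in F1 controls, 321 in F1 BaP, 369 in F2 controls and 86.3 in F2 BaP frogs. F2 controls were the highest of the 4 groups for nr4a2, fos and dusp1. In egr1, with 1.85 FPKM in F1 controls, 3.06 in F1 BaP, 5.53 in F2 controls and 1.26 in F2 BaP frogs, the order was the same at the top. The mRNA decay gene zfp36 had 27.2 FPKM in F1 controls, 64.1 in F1 BaP, 169.6 in F2 controls and 96.3 in F2 BaP frogs.

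Heat shock genes also leaned to F2 controls. Of 23 cytosolic chaperone genes, 12 were higher and 3 lower, with a median of 1.02 in controls and 0.94 in the BaP lineage. The inducible chaperone gene hsp70 had 1.56 FPKM in F1 controls, 0.292 in F1 BaP, 13.5 in F2 controls and 6.36 in F2 BaP frogs, and its partner gene dnajb1 had 1.70 FPKM in F1 controls, 1.21 in F1 BaP, 7.66 in F2 controls and 4.26 in F2 BaP frogs. The constitutive hspa8 had 268 FPKM in F1 controls and 448 in F2 controls. Among 35 chaperones of the endoplasmic reticulum 9 (25.7%) were higher and 3 (8.57%) lower, where 18.2% and 18.4% of all genes were, with hsp90b1 at 17.9 FPKM in F1 controls and 52.3 in F2 controls. Of 29 genes of the oxidative stress response 9 were higher and 1 lower, and the sensor gene keap1 had 5.30 FPKM in F1 controls and 19.5 in F2 controls.

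Of 17 clock genes 4 (23.5%) were higher and 3 (17.6%) lower, near the 18.2% and 18.4% of all genes. The repressor genes per1 and per3 had 32.5 and 119 FPKM in F1 and 9.17 and 28.96 in F2 controls. The output genes nfil3 and noct had 7.55 and 1.72 FPKM in F1 and 39.4 and 10.8 in F2 controls. In the BaP lineage the difference was -0.03 for per1, -1.06 for per3, 2.01 for nfil3 and 2.40 for noct. The hour of sampling is not given in the labels.

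Ribosomal protein genes had small differences by rank and larger ones by ratio. Of 79 cytosolic ribosomal protein genes 13 were higher and 2 lower, with a median rank-matched log2 difference of 0.25 in controls and 0.07 in the BaP lineage. With median-centred log2 FPKM ratios that control median was 1.46. The median FPKM of these genes was 3839 in F1 controls and 8024 in F2 controls. The gene rpl7 had 892 FPKM in F1 controls and 8009.7 in F2 controls. Of 76 mitochondrial ribosomal protein genes 17 (22.4%) were higher and 2 lower, with a median of 0.57 in controls and 0.34 in the BaP lineage. Of 73 genes of oxidative phosphorylation 18 (24.7%) were higher and 2 lower, with medians of 0.47 and 0.05. Over all genes 18.2% were higher. Lower genes in both lists were fewer than the 18.4% of all genes. The respiratory subunit gene cox5a had 37.7 FPKM in F1 controls, 71.9 in F1 BaP, 179 in F2 controls and 131 in F2 BaP frogs, and uqcrh had 33.7 FPKM in F1 controls, 69.3 in F1 BaP, 179.9 in F2 controls and 149 in F2 BaP frogs. The median of 18 elongation factor genes turned from -0.10 to 0.42 with the ratio.

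Nitrogen and amino acid metabolism held some of the strongest enzyme genes of the liver. The 50 genes had median levels of 71.4 FPKM in F1 and 56.9 in F2 controls, though the median rank-matched log2 difference was 0.30. Of these genes, 9 (18.0%) were higher and 7 (14.0%) lower, where 18.2% and 18.4% of all genes were. The urea cycle gene ass1 had 2553 FPKM in F1 controls, 1394 in F1 BaP, 1256 in F2 controls and 1044 in F2 BaP frogs, highest in F1 controls. Genes for both first steps of histidine breakdown were lower in F2 controls: hal.2 had 1496 FPKM in F1 controls, 967 in F1 BaP, 208 in F2 controls and 235 in F2 BaP frogs, and uroc1 had 408 FPKM in F1 controls, 129 in F1 BaP, 82.3 in F2 controls and 56.4 in F2 BaP frogs. The methionine adenosyltransferase gene mat1a had 10.9 FPKM in F1 controls and 32.5 in F2 controls, and bhmt, which remethylates homocysteine, had 315 FPKM in F1 controls and 811 in F2 controls.

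Foreign compound metabolism is the study's own theme. Of 37 phase I genes 3 (8.11%) were higher and 6 (16.2%) lower, and of 23 conjugation genes 3 (13.04%) were higher and 4 (17.4%) lower, where 18.2% and 18.4% of all genes were. The aryl hydrocarbon receptor target cyp1a1 had 101.1 FPKM in F1 controls, 115 in F1 BaP, 115.04 in F2 controls and 91.8 in F2 BaP frogs, a rank-matched log2 difference of 0.23 in controls. The receptor gene ahr had 1.60 FPKM in F1 controls, 2.09 in F1 BaP, 4.96 in F2 controls and 4.17 in F2 BaP frogs. The flavin monooxygenase gene fmo1 had 38.8 FPKM in F1 controls and 5.06 in F2 controls, and cyp3a5, of the family that oxidises many drugs in mammals, had 50.6 FPKM in F1 controls and 7.07 in F2 controls. The sulfotransferase row sult6b1.3 had 126 FPKM in F1 controls and 13.5 in F2 controls and its neighbour sult6b1.2 had 9.12 FPKM in F1 controls and 48.9 in F2 controls. The estrogen receptor gene esr1 had 6.48 FPKM in F1 controls, 6.07 in F1 BaP, 8.53 in F2 controls and 7.95 in F2 BaP frogs.

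Markers of blood cells differed between the control groups. Of 26 erythrocyte genes 16 (61.5%) were higher and none lower in F2 controls, where 18.2% and 18.4% of all genes were. The median rank-matched log2 difference was 1.13 in controls and 0.65 in the BaP lineage. Frog red cells keep their nucleus and their transcripts. The globin gene hbd had 98.2 FPKM in F1 controls, 221 in F1 BaP, 550.5 in F2 controls and 434 in F2 BaP frogs, and carbonic anhydrase 2, ca2, had 10.3 FPKM in F1 controls, 21.97 in F1 BaP, 75.9 in F2 controls and 58.6 in F2 BaP frogs. The heme synthesis enzyme alas2 had 157 FPKM in F1 controls, 252 in F1 BaP, 367 in F2 controls and 392 in F2 BaP frogs, while the globin gene hbg2, at 5144 and 5955 FPKM in F1 and F2 controls, had a control difference of -0.99 by rank and 0.55 by the median-centred ratio. Of 24 leukocyte genes 10 (41.7%) were lower and 2 (8.33%) higher, with a median of -0.72. The actin regulator gene coro1a had 98.3 FPKM in F1 controls and 21.2 in F2 controls, and the T cell kinase gene lck had 6.87 FPKM in F1 controls and 1.71 in F2 controls. The part of the red cell and leukocyte markers in the other differences was not tested. Without the 116 genes of the lists of other cell types, 1950 genes were higher and 1972 lower. Leaving out so few genes cannot show the part of cell composition in the genes that remain.

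Interferon response genes were balanced in the controls, 4 higher and 4 lower of 24, with a median of 0.11. In the BaP lineage 1 was higher and 10 lower, where 11.5% and 11.8% of all genes were, with a median of -0.42. The deconjugating protease gene usp18 had 17.3 FPKM in F1 controls, 60.5 in F1 BaP, 1.59 in F2 controls and 2.73 in F2 BaP frogs, and the antiviral gene mx1 had 6.29 FPKM in F1 controls, 55.00 in F1 BaP, 9.65 in F2 controls and 5.22 in F2 BaP frogs. For mx1 the F1 BaP group stood apart and the other groups lay between 5.22 and 9.65 FPKM, with a control difference of 1.04.

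Cell cycle genes were near the lower end of the scale, with median levels of 2.36 FPKM in F1 and 1.21 in F2 controls. Of 38 expressed genes 9 (23.7%) were lower and 1 (2.63%) higher, where 18.4% and 18.2% of all genes were. The replication helicase gene mcm7 had 20.1 FPKM in F1 controls and 4.78 in F2 controls, and pcna was the 1 higher gene, with 20.9 FPKM in F1 controls and 38.4 in F2 controls. Motile cilium genes were also weak, and 29 of 42 reached 1 FPKM. Of these, 10 (34.5%) were lower and 1 (3.45%) higher in F2 controls, with a median of -0.73. In the BaP lineage 13 were higher and 1 lower, where 11.5% and 11.8% of all genes were, with a median of 0.93. The cilium gene cfap52 had 5.62 FPKM in F1 controls, 1.41 in F1 BaP, 1.38 in F2 controls and 1.77 in F2 BaP frogs. The defining cilium gene foxj1 was listed between 0.141 and 0.732 FPKM in the 4 groups. The part of cells with cilia in these values was not tested.

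Pancreatic enzyme genes were mostly under 1 FPKM in the controls, apart from the amylase rows and cel. The amylase gene amy2a had 361 FPKM in F1 controls, 351 in F1 BaP, 34.3 in F2 controls and 63.2 in F2 BaP frogs, while amy2b had 256 FPKM in F1 controls, 299 in F1 BaP, 299 in F2 controls and 265 in F2 BaP frogs. The protease gene ctrc had 0.433 FPKM in F1 controls, 14.4 in F1 BaP, 0.316 in F2 controls and 5.17 in F2 BaP frogs. Its level was thus under 1 FPKM in both control groups and higher in both BaP groups. Muscle actin, acta1, had 5.63 FPKM in F1 controls, 0.539 in F1 BaP, 6.50 in F2 controls and 1.90 in F2 BaP frogs.

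Short genes stood higher in F2 more often than long ones. The median genomic span was 15.2 kb for genes higher in F2 controls, 24.9 kb for lower genes and 21.1 kb for those between. Over 5 classes of span the median rank-matched log2 difference went from 0.25 in the shortest to -0.30 in the longest class, and in the BaP lineage from 0.21 to -0.20. With each class centred on its own median, which was added once the data had been seen, 1891 genes were higher and 1903 lower. The part of gene length in the list differences was not tested further.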

How the data were processed

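Liver RNA of 21 frogs in 4 groups was sequenced, and values of single frogs were not used here. The FPKM was deposited by the authors as 1 value per gene and group, in 1 Cuffdiff table per generation, per the file headers. The authors' deposited log2 fold change has BaP over control, with their p-value and q-value. The test statistic, a score deposited by the authors, was not used. The tools in the submitters' processing notes are Cuffdiff 0.0.7, Cufflinks 0.0.7, HISAT2 and Trimmomatic 0.32.1. How shared or antisense reads were assigned is not given in the sources used here. The depth of each library is unknown.

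The tables were joined on their row identifier. Of 20288 rows, 11679 were tested in both tables, and 74 of these with several names or none were left out. The names slc31a1 and prpf4 stand on 2 rows each. Positions, counted from 1, are given for the 10552 of 11605 names (90.9%) whose ends in the tables equal those of a RefSeq gene on assembly UCB_Xtro_10.0.

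FPKM ranks were matched between the control columns, and between the BaP columns, in Python 3.11.15 with pandas 2.3.3 and numpy 2.4.6. The median uncentred log2 FPKM ratio of F2 over F1 was -0.34 in controls and -0.35 in the BaP lineage over the 10856 genes of at least 1 FPKM, and rank matching removes this shift. Genes in the text are the 30 highest, the 15 largest differences each way, up to 4 genes per list by level and by difference, a set of liver genes, and 4 genes on each side of the limit. A few others are marked as picked after their values were seen. Members and lists were chosen with earlier results of these data known, and 4 lists were written after the values here had been seen. Some lists share genes. Alternatives were ratios in place of ranks, a pseudocount of 1, other FPKM minimums, fold limits and row sets. Promoter and protein sequences were not used here. A few genes that this rule names are not reported here.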

Additional observations from a re-analysis of the deposited data

Results flagged for a closer look

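For 2 gene lists the median F2 minus F1 difference was at least 0.5 log2 units in controls and BaP lineage but with opposite signs. Of 10856 genes, 34 were at least 2-fold apart in opposite directions. Whether the generation difference itself differs between lineages was not tested here, since each group has 1 value. Within a generation, the authors' deposited tables for F1 and F2 gave q under 0.05 between BaP and control for 16 and 7 cholesterol synthesis genes and for 7 and 1 motile cilium genes, where 1.67% and 1.32% of all tested genes had it.

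Genes of cholesterol synthesis had a median rank-matched log2 difference of -1.15 in controls and 0.87 in the BaP lineage. Genes of the motile cilium had -0.73 in controls and 0.93 in the BaP lineage.

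A set of 26 genes was at least 2-fold lower in F2 than in F1 controls and at least 2-fold higher in F2 than in F1 BaP frogs. Among them were the sterol synthesis genes sqle, cyp51a1, msmo1, hmgcs1, dhcr7 and sc5d and the lipid breakdown gene lipe. It also held the cilium genes cfap45 and tekt2, the epithelial adaptor gene ap1m2, and the egg and germ cell genes h1-8, btg4 and exd1. The 1 FPKM minimum was set on the mean of the control groups only. In F1 BaP frogs sqle (0.0656 FPKM), tekt2 (0.449), btg4 (0.398), h1-8 (0.617) and lrrc23 (0.377) were under 1 FPKM, while cyp51a1 (5.47) was not. Also under 1 FPKM in that group were tgm4 (0.209), birc5 (0.266), c8h9orf116 (0.301), lhb (0.584) and LOC116411566 (0.361). So were LOC100497423 (0.558), LOC100496024 (0.0118) and LOC100491742 (0), whose 0 was replaced by the lowest positive value of its group. The sterol gene msmo1 had 58.5 FPKM in F1 controls, 3.92 in F1 BaP, 8.85 in F2 controls and 44.2 in F2 BaP frogs. The membrane protein gene tm4sf18 had 68.0, 32.5, 11.7 and 65.8 FPKM in the same order.

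A set of 8 genes was higher in F2 controls and lower in F2 BaP frogs: mx1, g6pc.1, ddit4, cnbd2 and 4 LOC-named rows. The stress gene ddit4, an inhibitor of mTOR signalling, had 10.1 FPKM in F1 controls, 39.1 in F1 BaP, 20.6 in F2 controls and 13.7 in F2 BaP frogs. The row cnbd2 had 1.34, 64.2, 4.79 and 15.3 FPKM in the same order. These genes were named after their values were seen.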

How the results depend on the processing

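Of the 40 lists with at least 3 expressed genes, the sign of the median turned with median-centred FPKM ratios in 3: complement (0.04), bile duct and epithelial markers (0.25) and translation elongation factors (0.42). Of 352 named genes, 53 crossed the 2-fold limit with that ratio, in both directions. Among them ass1, fetub, serpina1, rpl23 and mx1 fell short of it, while rpl37, rack1, fga, fgb, apoa1 and apob reached it only with the ratio. Of the 79 cytosolic ribosomal protein genes, 61 were higher and none lower with the ratio, where 13 were higher and 2 lower by rank. The difference of serpina1, past 2-fold by rank, reversed (0.23), and without an FPKM minimum that of the pancreas list did (0.21). Named genes within the 2-fold limit by rank also changed sign with the ratio. Among them were rbp4 (-0.83 to 0.72), hbg2 (-0.99 to 0.55), fgg (-0.66 to 0.69), apoc1 (-0.63 to 0.57) and gapdh (-0.22 to 0.68). At a mean of 5 FPKM, 1146 genes were higher and 1260 lower, of which 585 and 705 also were in the BaP lineage, and the rank correlation was 0.656. At 1.5-fold the counts were 3260 and 3283, with 2242 and 2257 shared, and at 4-fold 388 and 397, with 103 and 73 shared. With FPKM + 1, 630 higher genes were shared. Ranks over all readable rows gave a correlation of 0.951. No paired analysis was possible because the tables hold 1 value per group, and leaving out single frogs was not run for the same reason.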

Other observations

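Of 46 proteasome genes 4 (8.70%) were higher and 1 (2.17%) lower in F2 controls, where 18.2% and 18.4% of all genes were. The median rank-matched log2 difference was 0.31. The base assembly gene psmd5 had 0.778 FPKM in F1 controls, 1.56 in F1 BaP, 8.56 in F2 controls and 5.53 in F2 BaP frogs. Iron and heme genes had 8 of 20 higher and 1 lower, and the last enzyme of heme synthesis, fech, had 3.27 FPKM in F1 controls and 10.9 in F2 controls. Of 16 antigen presentation genes 2 were higher and 2 lower: the light chain gene b2m had 354 FPKM in F1 controls and 776 in F2 controls, and the proteasome activator gene psme1 had 173 FPKM in F1 controls and 48.9 in F2 controls. Among 38 liver transcription factor genes, a list written after the values were seen, 7 were higher and 5 lower, and the stress factor gene xbp1 had 436 FPKM in F1 controls and 494 in F2 controls.

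Markers of other liver cells lay on both sides. Of 19 endothelial genes 2 were higher and 4 lower: the scavenger receptor gene stab1 had 82.5 FPKM in F1 controls and 14.9 in F2 controls, and lyve1 had 0.518 FPKM in F1 controls and 2.63 in F2 controls. Of 34 stellate cell and matrix genes 6 were higher and 2 lower, while 23 had a negative difference and the median was -0.27. The proteoglycan gene dcn had 3.87 FPKM in F1 controls and 12.6 in F2 controls, the largest difference toward F2 in that list, and the collagen gene col1a1 had 11.7 FPKM in F1 controls and 4.92 in F2 controls. Of 17 bile duct and epithelial genes 5 were higher and 4 lower, and the keratin gene krt19 had 499.9 FPKM in F1 controls and 595 in F2 controls. Pigment cell genes had 1 higher and 2 lower of 7, and skeletal muscle genes none higher and 1 lower of 8. In the pigment list gch1, which makes a cofactor of amine synthesis, had 1.29 FPKM in F1 controls and 8.08 in F2 controls. The estrogen response list had 2 expressed genes, and neither passed the limit.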
